A study of Homo sapiens with 18 samples.

Results

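The data described here are the chromatin regions that were open in the head and neck squamous cell carcinoma lines SCC6 and SCC25 and had no peak in a further line, SCC1. A region was chosen when it overlapped, by at least 1 base, an ATAC-seq peak in 3 or more libraries of SCC6 and in 3 or more libraries of SCC25, and a peak in 0 of the 5 SCC1 libraries, with both treatments counted. Of the 115087 regions of the deposited table, 6559 (5.70%) met this rule. The choice rests on peak calls, so the lower signal of SCC1 at these regions is a description of how they were chosen and was not tested. The same rule with the lines exchanged gave 1032 regions shared by SCC1 and SCC25 without a peak in SCC6, and 706 shared by SCC1 and SCC6 without a peak in SCC25.

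ATAC-seq marks open chromatin with the transposase Tn5, which cuts and tags DNA that is not covered by nucleosomes. Open chromatin far from gene starts is mostly enhancer DNA, whose opening depends on the transcription factors a cell makes, and lines derived from different tumours therefore differ more at such sites than at promoters. In squamous epithelium the AP-1 factors (dimers of FOS and JUN proteins, driven by EGFR and ERK signalling), the TEAD factors (partners of YAP and TAZ) and the RUNX factors bind many enhancers of adhesion, wound and differentiation genes. Cetuximab is an antibody that blocks the epidermal growth factor receptor, EGFR.

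SCC1 (UM-SCC-1), SCC6 (UM-SCC-6) and SCC25 are established human lines that were grown in the same medium with serum, without any engineered allele. Each was given 100 nM cetuximab every day for 5 days, or phosphate-buffered saline (PBS) as the untreated control. The 17 libraries used were 3 of SCC1 with cetuximab, 2 of SCC1 with PBS, 3 of SCC6 with cetuximab, 3 of SCC6 with PBS, 3 of SCC25 with cetuximab and 3 of SCC25 with PBS. Each line comes from 1 tumour, so a difference between lines is a difference between 3 lines. The labels do not say whether replicates were separate cultures, and p-values then measure the spread between these libraries, which may be technical.

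The median depth was lowest in SCC1, and the shallowest SCC25 libraries overlapped it. Reads counted in the regions ran from 2194851 to 4171650 in the SCC1 libraries, from 4098164 to 15017130 in SCC6 and from 2513828 to 13408698 in SCC25, and peaks from 13035 to 36033, from 47441 to 101272 and from 18642 to 81963. At the chosen regions the median library held 8 to 15 reads per region in SCC1, 35 to 135 in SCC6 and 27 to 146 in SCC25. Among the SCC6 libraries the share of the chosen regions with a peak rose in the order of the reads counted. It ran from 62.9% to 98.3% in SCC6 and from 31.1% to 99.7% in SCC25, and the part of depth in the missing SCC1 peaks was not tested. The squamous label was checked against marker genes. A peak in at least 1 library of the line lay within 1 kb of a start site of 9 of 10 squamous epithelial markers in SCC1, 9 in SCC6 and 10 in SCC25, and a peak in all libraries of the line at 2, 5 and 0 of them. A peak in at least 1 library lay at 1, 0 and 1 of 7 haematopoietic markers in SCC1, SCC6 and SCC25. It lay at 2 of 7 fibroblast markers and at 0 of 4 endothelial markers in each line. A peak in all libraries of the line lay at 0 haematopoietic markers in each, and at 0, 2 and 0 fibroblast markers. These 2 were COL1A1 and DCN, at 6 of 6 SCC6 libraries.

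The sequences of 6 of the regions are shown because they carry the motifs that the results below turn on. Each is the 200 bases around the middle of the region, read from GRCh37 (hg19) and written 5′ to 3′. Capitals mark the RUNX motif TGTGGTT, the AP-1 motif TGACTCA, the TEAD motif CATTCC and the FOX motif TGTTTAC, on either strand of the DNA. No motif contains another, though matches can share letters. Coordinates of the sequences count from 1. The 6 were chosen after the values were seen.
Downstream of KLK5 (RUNX and AP-1), chr19:51435386-51435585, plus strand: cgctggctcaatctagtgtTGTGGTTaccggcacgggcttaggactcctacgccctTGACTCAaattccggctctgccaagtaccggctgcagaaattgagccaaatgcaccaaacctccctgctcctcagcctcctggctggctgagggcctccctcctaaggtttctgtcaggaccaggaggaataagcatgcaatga
Intron of EGFR (RUNX), chr7:55178896-55179095, plus strand: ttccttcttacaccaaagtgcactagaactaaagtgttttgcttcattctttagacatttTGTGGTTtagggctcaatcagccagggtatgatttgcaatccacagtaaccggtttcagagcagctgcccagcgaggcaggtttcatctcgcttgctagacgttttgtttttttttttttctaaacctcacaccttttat
Intron of VAV3 (RUNX), chr1:108137278-108137477, plus strand: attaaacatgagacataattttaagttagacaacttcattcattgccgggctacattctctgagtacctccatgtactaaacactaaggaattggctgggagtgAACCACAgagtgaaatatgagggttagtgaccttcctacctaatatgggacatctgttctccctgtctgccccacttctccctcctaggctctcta
Upstream of ITGB1 (RUNX and FOX), chr10:33299249-33299448, plus strand: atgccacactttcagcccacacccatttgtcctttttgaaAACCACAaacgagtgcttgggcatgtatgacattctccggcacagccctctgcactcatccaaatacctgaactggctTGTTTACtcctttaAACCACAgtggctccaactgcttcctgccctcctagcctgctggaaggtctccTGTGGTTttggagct
Intron of MACROD2 (AP-1), chr20:16001747-16001946, plus strand: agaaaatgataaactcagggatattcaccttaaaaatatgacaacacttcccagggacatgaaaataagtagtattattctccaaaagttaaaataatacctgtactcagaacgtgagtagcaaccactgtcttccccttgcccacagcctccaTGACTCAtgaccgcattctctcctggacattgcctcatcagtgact
Intron of ARHGAP42 (AP-1 and TEAD), chr11:100702187-100702386, plus strand: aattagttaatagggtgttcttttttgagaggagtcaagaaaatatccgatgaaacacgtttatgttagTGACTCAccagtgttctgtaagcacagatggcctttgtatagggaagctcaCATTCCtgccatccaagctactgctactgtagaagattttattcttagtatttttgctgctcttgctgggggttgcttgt

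At the chosen regions SCC6 and SCC25 held a level well above their own typical region, and SCC1 held the level of its typical region. The rule asked for peaks in SCC6 and SCC25, so their higher level follows from the choice. The deposited signal is the reads counted in a region, scaled by 1 factor per library. Its median over the 6559 regions ran from 14 to 16.7 in the 5 SCC1 libraries, from 42.2 to 44.6 in the 6 SCC6 libraries and from 47.8 to 55.0 in the 6 SCC25 libraries. The medians over all 115087 regions were 13.6 to 16.7, 20.5 to 24.2 and 19.5 to 24.5. Within a line the libraries differed little, and the plot of signal by library shows the SCC6 and SCC25 medians above all 5 SCC1 upper quartiles.

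**Figure D1:**
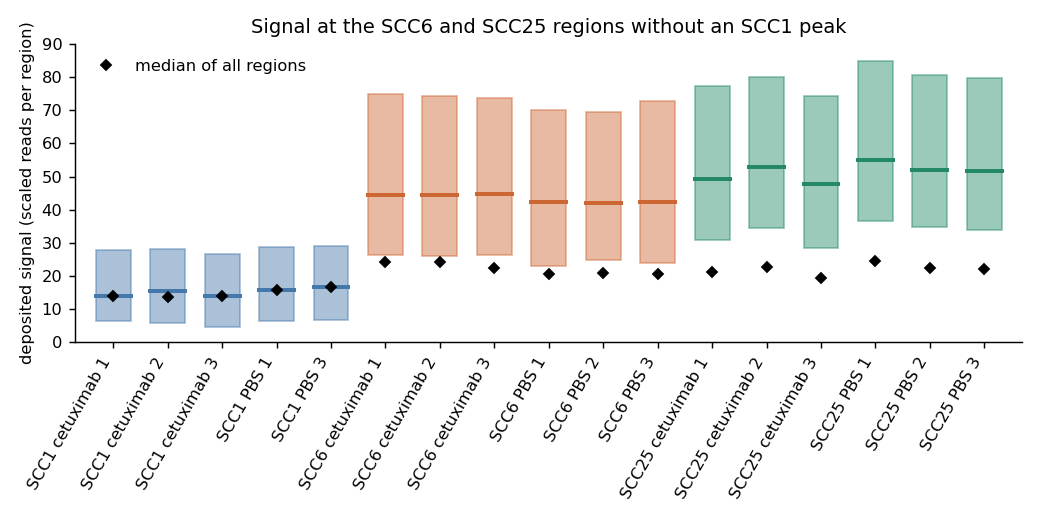
Deposited signal (scaled reads per region, linear axis) at the 6559 chosen regions in each of the 17 libraries. Boxes span the lower to the upper quartile, the line is the median and the black diamond is the median of all 115087 regions. In SCC1 the diamond lies on or near the median, from 13.6 to 16.7, and in SCC6 and SCC25 it lies below the lower quartile.

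The peak rule did not give a clean separation of signal. On the log2(signal + 1) scale, the median difference of SCC1 from the mean of SCC6 and SCC25 was -1.51 over the chosen regions and -0.15 over all regions. In 2293 of the 6559 (35.0%) SCC1 lay less than 1 log2 unit below the other lines, and in 630 (9.61%) it lay above them. At the other end, 984 (15%) differed by more than 3 log2 units. The highest SCC1 library lay below the lowest of the 12 SCC6 and SCC25 libraries in 2742 regions (41.8%), where 4.98% of all regions did so. The rule chose on this contrast, so nothing is read from that excess.

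The contrast was wider where more libraries carried the peak, a split on the same peak calls as the rule, so nothing is read from it. A peak in all 12 libraries of SCC6 and SCC25 was seen in 785 regions, whose median difference was -2.59 log2 units. Exactly 3 libraries of each line had the peak in 461, whose median difference was -0.74. The SCC1 medians were close, at 3.85 and 3.92. Those of SCC6 and SCC25 were 6.42 and 6.70 in the 785, and 4.58 and 5.01 in the 461. Just outside the rule stood 1625 regions that were 1 SCC6 library short, 1741 that were 1 SCC25 library short and 3023 with a peak in 1 SCC1 library. The median over regions of the mean signal in SCC1, SCC6 and SCC25 was 35.3, 44.9 and 50 in those with 1 SCC1 peak, 14.2, 27.1 and 45.9 in members with exactly 3 SCC6 libraries, and 12, 19.2 and 40.5 in those 1 SCC6 library short. The strongest regions at the edge show how peak calls and signal can part. The promoter of TMEM123, a small membrane protein, at chr11:102322414-102324366 had a peak in 3 SCC25 libraries at a signal of 135 to 182, and none in SCC1 at 161 to 224. A region 47.1 kb upstream of BIRC3, an inhibitor of apoptosis, at chr11:102140629-102141118 was left out for 1 SCC1 peak at a signal of 45.4 to 117, against 110 to 188 in SCC25.

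A small class of regions had peaks and almost no counted reads. The mean signal over the 12 SCC6 and SCC25 libraries was under 5 in 374 of the 6559 regions (5.70%), a limit chosen after the values were seen, and 137 of them held no read in any of the 12. They nevertheless carried a peak in a median of 4 SCC6 and 5 SCC25 libraries. They were rich in G and C, with a median of 58.0% against 45.7% in the rest. Of the 630 regions where SCC1 lay above the other lines, 308 belonged to this class. The class made up 10.9% of all regions and 4.2% of the regions of SCC6 and SCC25 that also had a peak in SCC1. Why the peak lists and the counted reads differ there was not tested.

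The chosen regions lay mostly far from the start sites of protein-coding genes and, like all regions, more often inside genes than between them. Within 1 kb of the start site of a protein-coding transcript lay 772 (11.8%), against 13.5% of all regions. The share was 36.7% in the 24074 regions of SCC6 and SCC25 with a peak in SCC1. In the 5429 regions with a peak in every library it was 57.9%. Sets restricted to fewer lines had lower shares than the chosen regions. These were 3.18% for SCC6 only, 4.40% for SCC25 only and 3.91% for SCC1 only. For SCC1 and SCC25 without SCC6 it was 8.43%, and for SCC1 and SCC6 without SCC25 9.92%. At the chosen regions the median distance to a start site was 46.7 kb, against 36.4 kb over all regions. Of them 33.9% lay more than 100 kb away, against 29.7%. In position 38.0% were intronic, 33.9% intergenic and 15.7% in a long non-coding RNA gene, while 6.4% overlapped an untranslated exon and 5.98% a coding exon. Over all regions these shares were similar, at 37.5%, 33.2%, 14.7%, 7.18% and 7.40%. They were wider than the typical region, with a median of 394 bases against 258, and their G and C content was close to it, at 46.2% against 45.9%.

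The promoters among them included genes of development and stress. The promoter of IRX3, a homeobox factor of early patterning, at chr16:54319997-54321111 had a signal of 73.6 to 95 in SCC1. In SCC6 its lowest, median and highest values were 267, 316 and 340, and in SCC25 they were 282, 345 and 377. The promoter of HSPB8, a small heat shock protein, at chr12:119616290-119616833 gave 21.6 to 54.8 in SCC1, a median of 338 (315 to 390) in SCC6 and a median of 227 (199 to 288) in SCC25. The promoter of ZNF724, a zinc finger gene of the chromosome 19 clusters, at chr19:23432780-23433443 gave the widest gap of these, with 8.89 to 19 in SCC1, a median of 305 (262 to 322) in SCC6 and of 246 (236 to 277) in SCC25. In these 3 promoters the SCC1 libraries did not overlap those of the other lines. At KLF4, a factor of squamous differentiation, the promoter at chr9:110251776-110252691 met the rule with 71.6 to 146 in SCC1 and 63.6 to 110 in SCC6, and these overlap.

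Some neighbouring regions were chosen together. Most of the regions (5350) stood alone in the table's order, 474 runs held 2, 69 held 3, 12 held 4 and 1 held 6. The longest lay over 82.3 kb of chromosome 8, 119808837 to 119891109, downstream of TNFRSF11B, which encodes osteoprotegerin, a decoy receptor for the bone cytokine RANKL. A run of 4 at SEMA5A, a semaphorin of axon guidance, went from the promoter to 16.0 kb upstream (chr5:9546060-9562645). Its second region, at chr5:9557820-9558153, had the SCC1 values 3.90 and 5.58 with PBS and 3.81, 11.7 and 12.5 with cetuximab. In SCC6 it had 130, 99.7 and 111 with PBS and 97.0, 126 and 122 with cetuximab, and in SCC25 173, 188 and 185 and then 122, 155 and 135. Both lines stood above every SCC1 library and neither passed the test for cetuximab (limma, adjusted p = 0.943 in SCC6 and 0.196 in SCC25). Other runs of 4 lay in ARHGAP42 (chr11:100679598-100702406) and upstream of TSHZ2 (chr20:51505721-51563040).

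By nearest start site, 3782 of 16946 genes had a chosen region, 2496 of them only 1 and 204 of them 5 or more. ARHGAP42, a GTPase activating protein, had 26 of its 77 regions, and TRIB2, a pseudokinase, had 19 of 69. TRPS1, a GATA-type repressor, had 16 of 89, ASAP1, an ARF GTPase activating protein, 14 of 69, NOVA1, a neuronal splicing factor, 14 of 63, PRKD1, a protein kinase D, 13 of 52 and SEMA5A 13 of 62.

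The share of a chromosome's regions that was chosen differed along the genome. It was highest on chromosomes 9 (9.16%), 14 (8.75%) and 19 (7.90%) and lowest on chromosomes 17 (2.95%) and 4 (3.94%). Chromosomes 9, 14 and 19 held 1012 chosen regions, 15.4% of the total, and 10.0% of all regions. At the regions with a peak in every library, the median log2 difference of SCC1 from the other lines was -0.11 on chromosome 9, -0.31 on 14 and -0.24 on 19, against 0.26 over the genome and 0.55 on chromosome 17. It was not low against each line: on 9 it was 0.01 against SCC6 and -0.28 against SCC25, and on 19 it was -0.63 and 0.15. Chromosomes 10 (7.24% chosen) and 16 (7.21%) had a high share with a difference of 0.28 and 0.22. On chromosome 21 it was -0.26, with 4.89% chosen, over 19 regions open everywhere. The copy number of these chromosomes was not tested.

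**Figure D2:**
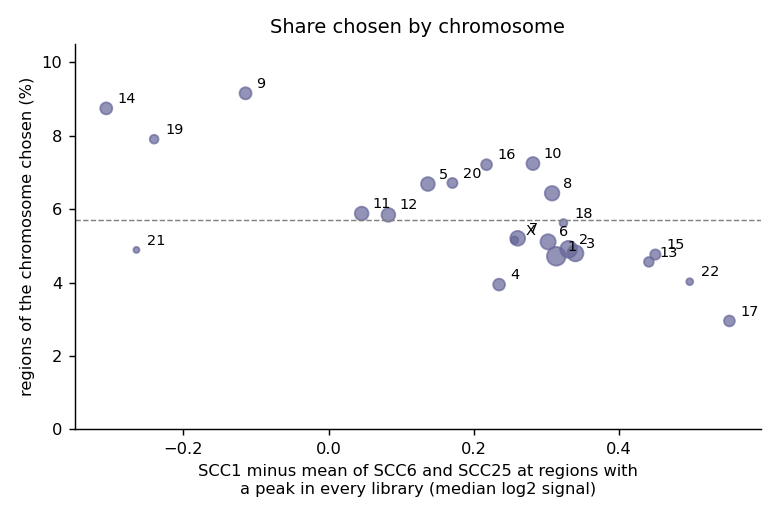
Each point is 1 chromosome, with an area that grows with its number of regions with a peak in every library. The horizontal axis is the median log2 signal of SCC1 minus the mean of SCC6 and SCC25 at those regions, and the vertical axis is the percentage of the chromosome's regions that were chosen, with a dashed line at the genome's 5.70%. Chromosomes 14, 19 and 9 lie at the upper left and chromosome 17 at the lower right.

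The highest signals of all came from a stretch of chromosome 11. Between 100 and 104 Mb, chosen after the leading regions were seen, lay 361 regions of the table and 45 chosen ones. Across all 361 the median log2 difference of SCC6 from SCC25 was 3.04, and at the 15 with a peak in every library it was 3.89, against 0.18 over the genome. At the chosen regions there, the median log2(signal + 1) stood at 3.91 (SCC1), 7.58 (SCC6) and 5.82 (SCC25). A region 21.4 kb upstream of MMP7, the metalloproteinase matrilysin, at chr11:102422881-102423802 had 44.2 to 93.4 in SCC1, a median of 2248 (1843 to 2691) in SCC6 and a median of 136 (63.3 to 147) in SCC25. In this stretch SCC6 was high at every kind of region, so a high signal there does not speak of the chosen regions alone. Of the 8 distal regions with the highest mean signal, 6 lay in it. Outside it the 2 highest were a region in the non-coding gene LINC00662 (chr19:28284036-28285310), with 14.1 to 50.6 in SCC1, a median of 654 in SCC6 and 547 in SCC25, and a region 161 kb downstream of CAVIN4 (chr9:103501516-103502439), with 13.4 to 44.8, 145 and 981.

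Among the motifs, RUNX stood out at the chosen regions. In the 5787 of them more than 1 kb from a start site, the middle 200 bases held a RUNX motif in 16.1%, against 7.33% of all 99559 such regions. The share was 6.02% in the regions of SCC6 and SCC25 with a peak in SCC1, 5.21% in regions of SCC6 only, 11.2% in regions of SCC25 only and 2.2% in regions of SCC1 only. The converse sets had 2.86% (SCC1 and SCC25 without SCC6) and 3.30% (SCC1 and SCC6 without SCC25). The excess was present in each tertile of the regions by G and C content, at 20.7% against 7.61% in the lowest, 17.9% against 8.80% in the middle and 8.04% against 4.70% in the highest. By the peak calls that chose the regions, the share was 19.2% with a peak in all 12 libraries and 13% with exactly 3 and 3. Of the regions shown above, those at KLK5, EGFR, VAV3 and ITGB1 carry this motif.

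The AP-1 motif was the most frequent of the 4, at 29.7% of the chosen regions far from start sites against 23.1% of all, and at 34.1% of the regions with an SCC1 peak. TEAD was found in 21.2% against 17.8% of all and 20.6% of those with an SCC1 peak. By G and C tertile, AP-1 was 33.3% against 16.9% of all in the lowest and 34.6% against 31.1% in the middle. TEAD was 25.6% against 15.1% and 24.3% against 22.8% there. In the highest tertile both lay below all regions, AP-1 at 17.4% against 20.7% and TEAD at 11.1% against 14.6%. RUNX and AP-1 were found together in 4.54% of the chosen regions, and AP-1 was about as frequent with RUNX (28.2%) as without it (30.0%). Of other motifs, the letters AGATAA bound by the GATA family were in 14.7% against 14.2% of all, those of ETS factors (CCGGAAG) in 0.88% against 1.05%, and CTCF in 0.76% against 1.25%. The E-box CAGGTG was in 20.6% against 16.2% of all and 22.4% of those with an SCC1 peak. Shares are descriptions of letters in these windows, and no motif is evidence of a bound factor.

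The FOX share of 9.56% against 5.46% of all was partly made of copies of 1 sequence. In the tertile of regions richest in G and C it was 17.6%, or 267 regions, of which 174 carried the same 14 letters:
Shared FOX run, on either strand: cttTGTTTACctaa
These letters occur 2968 times in the GRCh37 chromosomes used, so the run is a repeat. It was found in 175 chosen regions far from start sites (3.02%), in 1.21% of all and in 1.86% of those with an SCC1 peak. Of these 175, 105 belonged to the class with almost no counted reads, and the median log2(signal + 1) of the 175 was 1.69 (SCC1), 1.28 (SCC6) and 2.26 (SCC25). Without the run, FOX was found in 6.53% of the chosen regions, 4.24% of all and 3.35% of those with an SCC1 peak. The RUNX share moved to 16.8% against 7.78% when regions of mean signal under 5 were left out, and to 16.1% against 7.29% when matches with repeated surroundings were left out.

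**Figure D3:**
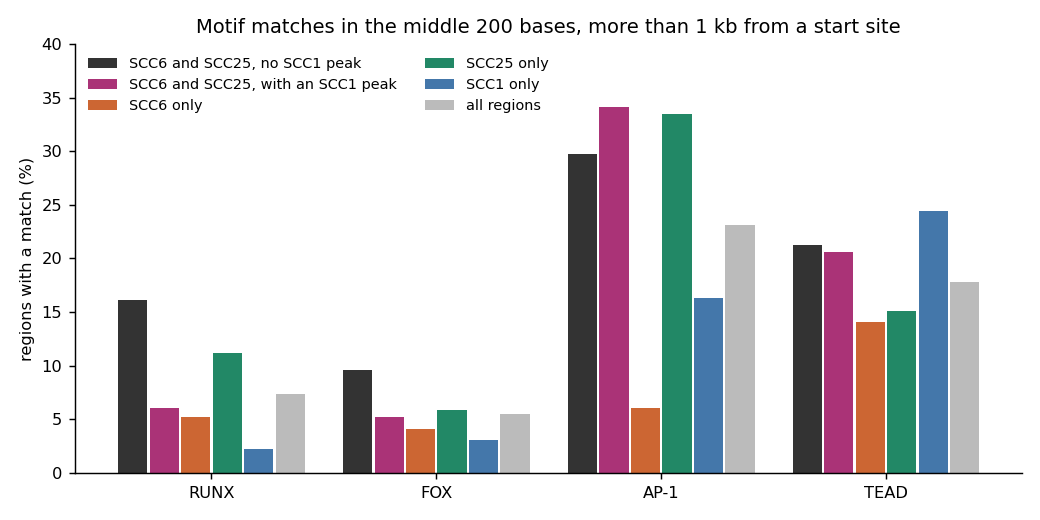
Percentage of regions with each motif in the middle 200 bases, on either strand, for regions more than 1 kb from a start site. Bars are the chosen regions, the regions of SCC6 and SCC25 with an SCC1 peak, regions of 1 line only and all regions. RUNX reaches 16.1% in the chosen regions and 11.2% or less in the other sets, and the FOX bar includes the repeated run described in the text.

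The genes near the chosen regions were described by 13 gene lists. Regions assigned to 76 developmental transcription factors were chosen in 140 of 1680 cases (8.33%, in 44 genes), among them IRX3 and TSHZ2. Lists of squamous lineage factors (29 of 405, 7.16%) and of NOTCH, WNT and TGF-beta genes (55 of 728, 7.55%) were also above the 5.70% of all regions. Genes of EMT and the mesenchymal state (27 of 455, 5.93%), cell junctions (17 of 297, 5.72%), integrins and basement membrane (14 of 277, 5.05%) and interferon and antigen presentation genes (4 of 82, 4.88%) were close to it. Receptor genes regulated by TFAP2A with the TFAP2 family (13 of 285, 4.56%) and EGFR ligands, ERK targets and bypass receptors (27 of 660, 4.09%) were below it. Lowest were HNSCC tumour suppressors and cell cycle inhibitors (4 of 232, 1.72%), cytokines and chemokines (2 of 162, 1.23%) and keratins (0 of 66). The cornified envelope list had the highest share of the 13, 8.89%, though from only 4 of 45 regions. No list was tested, since it was chosen with results of these data known.

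Single members of the lists show the pattern. At the region 20.4 kb downstream of KLK5, a kallikrein protease of the shedding epidermis, at chr19:51435163-51435807 SCC1 had 7.81 and 11.2 with PBS and 7.62, 21.4 and 15.7 with cetuximab. SCC6 had 115, 163 and 144 with PBS and 156, 145 and 133 with cetuximab, and SCC25 had 96.1, 124 and 113 and then 90, 84.7 and 119. Treated and untreated libraries overlapped in each line, and SCC1 stood apart from both. The region 59.1 kb downstream of TFAP2C, an AP-2 factor of epithelial cells, at chr20:55264357-55265173 had 7.79 to 36.4 in SCC1, a median of 303 in SCC6 and of 111 in SCC25. A region 17.7 kb upstream of ITGB1, the integrin beta-1 chain, at chr10:33299055-33299641 had 17.2 to 44.7 in SCC1, a median of 174 (149 to 205) in SCC6 and a median of 195 (149 to 219) in SCC25.

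The question of the treatment is whether these regions changed after 5 days of cetuximab. In SCC6, 6052 of the 6559 passed the filter on low values, and limma with Benjamini-Hochberg adjustment over all 86315 regions tested called 1376 higher (22.7%) and 1019 lower (16.8%) at an adjusted p below 0.05. Over all regions tested 16.9% were called higher and 10.6% lower. These shares are partly fixed by the rule, which counted both treatments, so that a region could enter through the group where it was high. In 669 chosen regions the SCC6 peaks were in cetuximab libraries alone, and of the 636 tested 85.1% were called higher. In 87 they were in PBS libraries alone, and of the 86 tested 95.3% were called lower. In the 5330 tested with SCC6 peaks in both treatments, a split chosen after the values were seen, 835 were called higher (15.7%) and 937 lower (17.6%). The balance of directions depends on the scaling: the median log2 change was 0.02 over the chosen regions and 0.11 over all, and after centring on the median of all regions 1114 were called higher and 1517 lower.

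The calls in SCC6 lay far from start sites and differed by motif. Of the chosen regions within 1 kb of a start site 6.74% were called higher and 12% lower, and of those further away 25% and 17.5%. Over all regions the shares were 3.77% and 10.9% within 1 kb and 19.5% and 10.6% further away. Of 910 distal regions with RUNX, 35.8% were called higher and 11.5% lower, with a median log2 change of 0.26. Of 1196 with TEAD, 33.4% were called higher and 12.1% lower. Of 1676 with AP-1, 18.8% were called higher and 22.8% lower, with a median of -0.07, and of 2106 with none of the 4 motifs 22.1% and 16.9%. Over all regions of the table the shares were 27.3% higher and 9.12% lower with RUNX, 28.1% and 9.33% with TEAD, 13.2% and 19% with AP-1, and 18.4% and 7.79% with none of the 4. Among the chosen regions with SCC6 peaks in both treatments they were 27.9% and 12.8% with RUNX, 23.4% and 12.9% with TEAD, 13.7% and 23.3% with AP-1, and 14.1% and 17.8% with none. FOX, without the repeated run, gave 19.4% higher and 27.1% lower among 340 chosen regions, against 15.5% and 17.1% over all regions with it. These shares were not tested against each other.

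Regions that rose in SCC6 included one in an intron of EGFR, which entered the set through peaks in cetuximab libraries of SCC6 alone. At chr7:55178850-55179141, 1.43 kb downstream of a start site with the RUNX motif shown above, SCC6 had 47.1, 38.8 and 39.2 with PBS and 123, 123 and 127 with cetuximab. The groups did not overlap, and the log2 change was 1.56 ± 0.19 (SE, n = 3 and 3, limma adjusted p = 1.41e-08). SCC25 had 79.1, 63.5 and 73.8 with PBS and 63.3, 87.3 and 69.1 with cetuximab, which overlap (log2 change 0.01 ± 0.20, limma adjusted p = 0.984). The smallest adjusted p belonged to a region 2.90 kb downstream of a start site of ARHGAP42, at chr11:100865713-100866211, inside the stretch of chromosome 11 that was high in SCC6. It had 76.1, 91.0 and 116 with PBS and 786, 728 and 661 with cetuximab (log2 change 2.94 ± 0.12, limma adjusted p = 3.46e-24). In the stretch 16 of the 45 chosen regions were called higher and 17 lower, and of all 339 regions tested there 28.3% and 32.4%.

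Regions that fell in SCC6 included an intron of GNA14, a G protein alpha subunit, at chr9:80204092-80204671 with the AP-1 motif. SCC6 had 196, 185 and 188 with PBS and 32.3, 27.9 and 23.5 with cetuximab, and the log2 change was -2.73 ± 0.19 (SE, n = 3 and 3, limma adjusted p = 1.54e-15). SCC25 had 132, 107 and 109 and then 104, 92.5 and 63.8, all treated values below the untreated ones, with a log2 change of -0.44 ± 0.19 that did not pass (limma adjusted p = 0.295). A region 2.07 kb from JUNB, an AP-1 subunit, in an intron of HOOK2 at chr19:12904370-12904928 had 282, 282 and 296 with PBS and 157, 183 and 234 with cetuximab in SCC6. It fell by 0.60 on the log2 scale (limma adjusted p = 8.5e-05). Its SCC25 values, 233, 187 and 202 with PBS and 208, 223 and 262 with cetuximab, overlap.

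By list, and beside the 22.7% higher and 16.8% lower of all chosen regions, those called in SCC6 were 33 higher and 26 lower of 137 tested at developmental factors, and 14 higher and 15 lower of 53 at NOTCH, WNT and TGF-beta genes. At squamous lineage factors 5 were higher and 11 lower of 29, with a median log2 change of -0.29. At cell junction genes 5 were higher and 0 lower of 16, yet the median log2 change was -0.28. At TFAP2-regulated receptors 2 were higher and 6 lower of 13 (median -0.42), and at EGFR ligands and ERK targets 6 and 8 of 24 (-0.25). At EMT genes they were 6 and 5 of 26 (0.17) and at integrins 4 and 2 of 14 (0.02). The median was -0.05 at developmental factors and -0.09 at NOTCH, WNT and TGF-beta genes. The list counts were not split by the treatment whose libraries carried the peaks.

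In SCC25 few of the regions were called, and cetuximab replicates 1 and 3 were the shallowest libraries of this line. They held 3214656 and 2513828 counted reads, against 7385401 in cetuximab replicate 2 and 5509462 to 13408698 in the PBS libraries. The part of depth in the SCC25 calls was not tested. Of 6219 tested, limma called 4 higher and 39 lower (0.627%), where 0.0405% of all regions were called higher and 0.275% lower, and 1026 had an unadjusted p under 0.05. These counts rest on every untreated library: without any 1 of the 3 PBS libraries 0 were called in either direction, and leaving out cetuximab replicate 1, 2 or 3 gave 58, 68 or 82 calls in all. They depend on the test too, with 38 higher and 86 lower by edgeR, 20 and 33 by DESeq2, and 8 and 14 after centring. As in SCC6, the rule let a region enter through the group where it was high. In 497 chosen regions the SCC25 peaks were in PBS libraries alone, and of the 489 tested 10 were called lower (2.04%). Of the 5730 tested with SCC25 peaks in both treatments, 4 were called higher and 29 lower (0.506%).

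The 4 regions called higher in SCC25 were called higher in SCC6 as well. In an intron of VAV3, an exchange factor for small GTPases, at chr1:108137222-108137533 with the RUNX motif, SCC25 had 39.2, 38.9 and 46.7 with PBS and 83.0, 95.1 and 74.4 with cetuximab (log2 change 1.00 ± 0.21, limma adjusted p = 0.0341). SCC6 had 52.0, 60.9 and 83.7 and then 102, 128 and 104 (log2 change 0.78 ± 0.19, limma adjusted p = 0.00139). In both lines the treated libraries lay above the untreated ones. The other 3 lay near CEMIP2 (chr9:74296636-74297281), in an intron of TNN near KIAA0040 (chr1:175098436-175098710) and in an intron of ABLIM1 (chr10:116398559-116399282), with log2 changes of 0.99, 0.98 and 0.93 in SCC25 and of 3.40, 1.17 and 3.46 in SCC6. Their SCC6 peaks were in cetuximab libraries alone.

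Of the 39 called lower in SCC25, the smallest adjusted p belonged to an intron of MACROD2, an ADP-ribose hydrolase, at chr20:16001556-16002136 with the AP-1 motif. SCC25 had 158, 150 and 184 with PBS and 75.9, 84.7 and 83.2 with cetuximab, and fell by 1.00 on the log2 scale (SE 0.16, n = 3 and 3, limma adjusted p = 0.0075). SCC6 had 103, 112 and 99 and then 40.4, 59.4 and 42.3 (log2 change -1.14 ± 0.20, limma adjusted p = 1.71e-05). In both lines every treated library lay below every untreated one. Over the alternatives tried, the adjusted p in SCC25 ran from 0.000135 to 0.217 and was above the threshold in 4 of 15. Regions far from FLRT2 (chr14:84932101-84932660), ZNF462 (chr9:109194918-109195293) and ADGRL4 (chr1:80530065-80530514) fell in SCC25 by 0.80, 1.00 and 1.13 on the log2 scale, and in SCC6 by 1.37, 2.16 and 1.30.

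**Figure D4:**
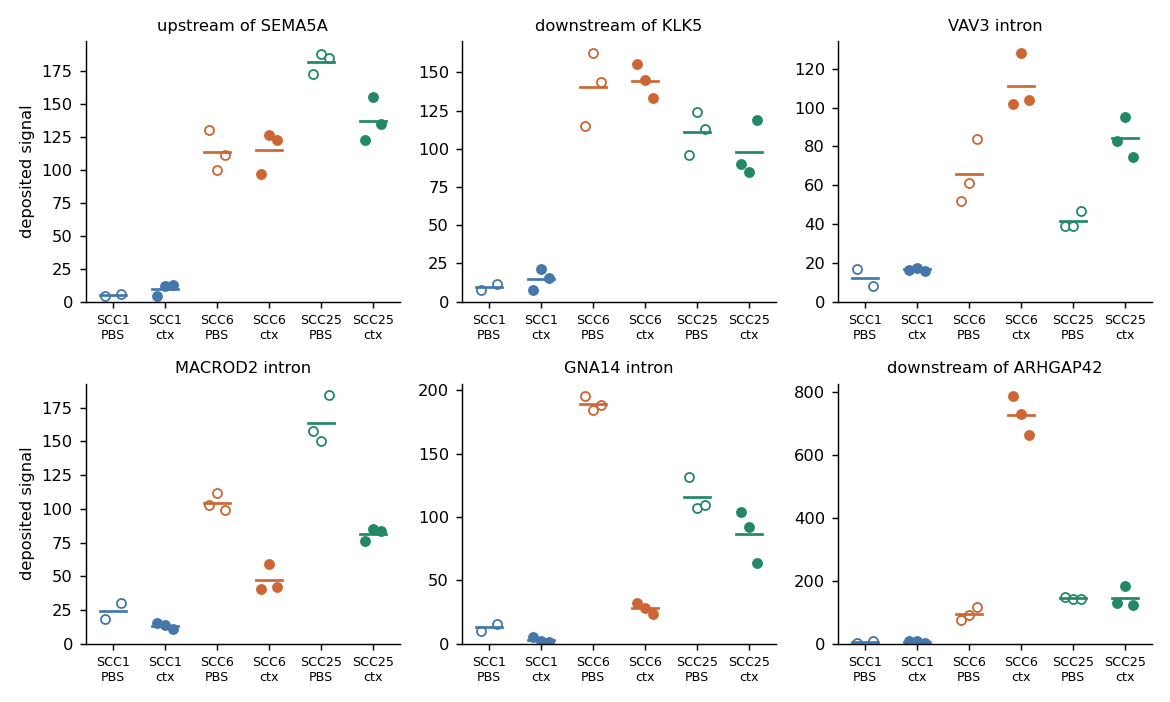
Deposited signal (linear axis from 0) of 6 chosen regions in every library, with PBS as open and cetuximab (ctx) as filled points and a bar at the group mean. SCC1 lies lowest in each panel. SEMA5A and KLK5 show regions not called for cetuximab, VAV3 and MACROD2 regions that moved the same way in SCC6 and SCC25, and GNA14 and ARHGAP42 regions that passed the test in SCC6 and whose response differed between the lines.

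The difference between the responses of the 2 lines was tested as an interaction. Of 6077 regions tested, 298 had a higher response in SCC25 (4.90%, against 2.58% of all regions) and 928 a lower one (15.3%, against 6.77%). After centring on the median the counts were 622 and 675. Among the 4921 tested with peaks in both treatments in both lines they were 244 (4.96%) and 452 (9.19%). The smallest adjusted p values included a region 147 kb upstream of BMP4, a ligand of the TGF-beta family, at chr14:54572181-54572951. SCC6 had 133, 137 and 111 with PBS and 14.1, 15.8 and 21.5 with cetuximab, and SCC25 had 156, 134 and 148 and then 90, 109 and 117. Its SCC6 peaks were in PBS libraries alone. The response of SCC25 lay 2.36 ± 0.26 log2 units above that of SCC6 (limma adjusted p = 3.03e-06). In the other direction, a region 286 kb upstream of ST3GAL1, a sialyltransferase, at chr8:134870304-134870930 had 15.7, 10.0 and 13.1 with PBS and 180, 194 and 169 with cetuximab in SCC6, and 382, 319 and 371 and then 260, 307 and 321 in SCC25. Its SCC6 peaks were in cetuximab libraries alone, so it entered the set through the group where it is high.

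Across the 6040 regions tested in both lines, each against its own PBS libraries, the changes had a Pearson r of 0.26 and 55.5% had the same sign. Over the 68852 regions of the table tested in both the values were 0.24 and 55.7%. These describe regions of the same libraries and are not tests. Where SCC6 was called lower (1018 regions) the median change in SCC25 was -0.26, and where SCC6 was called higher (1375) it was -0.03, against -0.19 and 0.05 over all regions. These signs depend on the scaling of SCC25. Of the 6219 chosen regions tested there 64.5% had a negative change (median -0.11), and after centring 54.5% (median -0.04). Of the 43 regions called in SCC25, 35 had the same sign in SCC6 and 29 were called the same way in both, as were 183 and 122 of the 212 called over all regions tested in both.

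**Figure D5:**
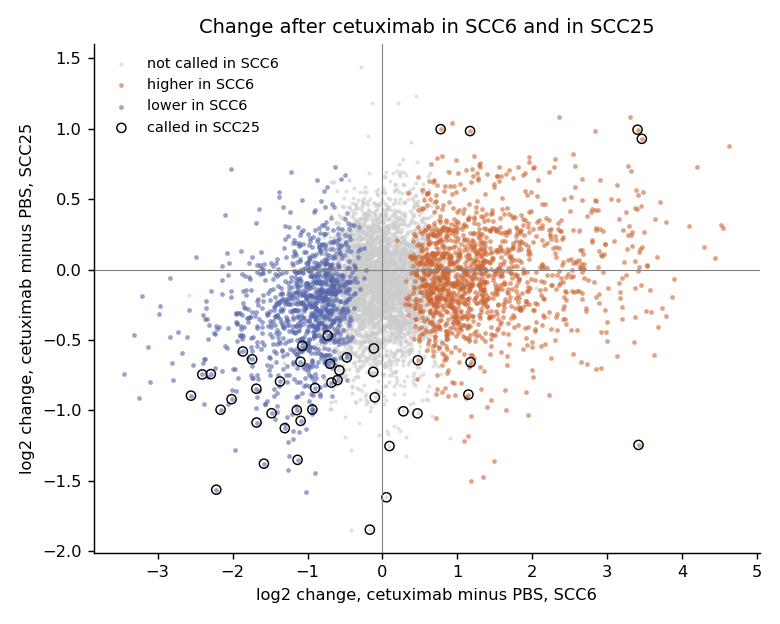
Log2 change after cetuximab (mean log2(signal + 1) of 3 treated minus 3 untreated libraries) of the 6040 chosen regions tested in both lines, SCC6 on the horizontal and SCC25 on the vertical axis. Colours give the limma call in SCC6 and rings the 43 regions called in SCC25. Regions lower in SCC6 lie mostly below 0 in SCC25, and those higher in SCC6 lie on both sides of it. Of all 6219 chosen regions tested in SCC25, 64.5% lie below 0 as drawn, and 54.5% after centring on the median.

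In SCC1, which has no peak at these regions, 5945 passed the filter and limma called 178 higher (2.99%, against 4.58% of all regions) and 150 lower (2.52%, against 6.56%). The SCC1 libraries held a median of 8 to 15 reads at these regions, and the part of depth in the calls was not tested. The 328 calls in all became 37 without PBS replicate 1, 96 without PBS replicate 3, 160 without cetuximab replicate 1 and 217 without cetuximab replicate 3. After centring 320 were called higher and 88 lower. At the KLF4 promoter SCC1 had 71.6 and 83.7 with PBS and 129, 111 and 146 with cetuximab (log2 change 0.72 ± 0.25, n = 3 and 2, limma adjusted p = 0.0398).

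Untreated SCC25 and SCC6 were compared at the same regions. The rule asks for peaks in both lines, with either treatment, so this comparison is not independent of it. Of 6084 tested, 2502 were higher in SCC25 (41.1%, against 36.9% of all regions) and 1151 lower (18.9%, against 35.1%), with a median log2 difference of 0.32 against 0.005. With the trend in G and C content removed the counts were 2052 and 1576. Towards SCC6, the smallest adjusted p belonged to the TMEM123 promoter, with 2943, 2761 and 2957 in SCC6 and 179, 156 and 163 in SCC25, and to the MMP7 region. Both lie in the high stretch of chromosome 11, where 41 of 45 chosen regions were lower in SCC25, as were 91.8% of all 329 regions tested there. Towards SCC25 stood the CAVIN4 region, with 197, 156 and 152 in SCC6 and 1091, 1023 and 999 in SCC25 (log2 difference 2.63 ± 0.10, limma adjusted p = 1.49e-10). A region 66.6 kb downstream of N4BP1, at chr16:48570130-48570981, had 19.3, 16.1 and 16.3 in SCC6 and 325, 328 and 366 in SCC25 (limma adjusted p = 1.57e-10). Its SCC6 peaks were in cetuximab libraries alone. Untreated SCC1, with 69.0 and 83.7, lay above untreated SCC6.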

How the data were processed

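ATAC-seq libraries of SCC1, SCC6 and SCC25 were analysed from the deposited peak lists and the deposited signal table. Per the labels and the methods, the authors trimmed reads with Trim Galore 0.5.0, aligned them to hg19 (GRCh37) with Bowtie2 2.3.2, removed duplicates and mitochondrial reads with Picard 2.18 and low-quality reads with SAMtools 1.9, and ran MACS2 on every library for broad peaks (version and cutoffs not given in the sources used here). DiffBind made the region table. The deposited signal of each region is whole reads, with 0 set to 1, times 1 factor per library: 100% of values came out whole. The deposited −log10 q-values of the peaks were used only for a stricter rule, and the deposited fold enrichment ratio and score columns of the peaks entered no test. SCC1 PBS replicate 2 was not used here. Starts are given as in the table, where 96.44% equal the peak lists' 0-based starts, so they lie 1 base before the first base of the region.

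Main tests were limma 3.58.1 (R 4.3.3; trend, robust, two-sided) on log2(signal + 1) within the groups compared, with the 25% of regions of lowest mean signal left out and Benjamini-Hochberg adjustment over all regions tested at 0.05. A fold change on this scale understates changes of low regions. edgeR 4.0.16 and DESeq2 1.42.0 on the recovered reads were alternatives, beside centring, quantile normalization, pseudocount 5, no filter, removal of the G and C trend, a replicate block, all libraries in 1 fit and leaving out libraries. The fit was tested on simulated data. Start sites were 78714 of 19807 protein-coding genes in GENCODE v44 lifted to GRCh37, and motifs were searched on both strands. Named regions were the strongest distal and promoter regions, the smallest adjusted p in each comparison, the longest runs, the genes with most regions, up to 3 genes per list and the regions at the edges of the rule. Members and lists were chosen with earlier results of these data known.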

Additional observations from a re-analysis of the deposited data

Results flagged for a closer look

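The response to cetuximab differed between SCC25 and SCC6, by the test of the interaction, with a higher response in SCC25 at 298 of the chosen regions and a lower one at 928 (limma, adjusted p below 0.05 over all regions tested), where 2.58% and 6.77% of all regions were called. After centring on the median the counts were 622 and 675, and with only regions that had peaks in both treatments in both lines they were 244 and 452. The BMP4 region had its SCC6 peaks in PBS libraries alone and the ST3GAL1 region in cetuximab libraries alone. The named regions with the smallest adjusted p were a region 114 kb downstream of TNFRSF11B, where the response of SCC25 minus that of SCC6 was 2.78 on the log2 scale, and the region upstream of BMP4, where it was 2.36. In the other direction it was -4.00 at the region upstream of ST3GAL1 and -2.96 at the region downstream of ARHGAP42. At the TNFRSF11B region SCC6 had 226, 193 and 207 with PBS and 37.4, 21.4 and 28.4 with cetuximab, and SCC25 had 118, 136 and 101 and then 141, 120 and 85.0. All 4 kept their direction and their call under the 21 alternatives tried.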

How the results depend on the processing

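The number of chosen regions was 4233 when a peak had to cover 50% of the region, of which 1875 are among the 6559, 601 when peaks in SCC6 and SCC25 needed a −log10 q of at least 5, 785 when all 12 libraries needed a peak, and 4936 to 7739 with 1 library left out. A promoter window of 3 kb gave 14.8% in place of 11.8%. Motif shares over the whole region were 39.1% for AP-1, 22.3% for RUNX, 16.7% for FOX and 32% for TEAD. Over distal regions, chosen after seeing the data, AP-1 was 31.0% and FOX 7.72% without regions of mean signal under 5, and FOX 6.83% without repeated surroundings.

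In SCC6 the counts that moved by more than 1.5 times were 579 lower with all libraries in 1 fit and 835 higher with only regions that had a peak in both treatments, chosen after seeing the data, and with 1 library left out the counts ran from 1169 to 1325 higher and from 799 to 1006 lower. In SCC25 higher and lower calls were 38 and 86 by edgeR, 8 and 14 after centring, 12 and 93 with the replicate block, and 0 and 0 with all libraries in 1 fit. Higher calls were 20 by DESeq2, 11 after quantile normalization, 8 with pseudocount 5 and 7 without the filter, and lower calls were 3 with the G and C trend removed. With 1 library left out they ran from 0 to 11 and from 0 to 71. In SCC1 they were 104 and 34 by DESeq2, 320 and 88 after centring, 272 and 92 after quantile normalization, 114 and 87 without the filter, and 496 and 658 in 1 fit, with 74 lower without the G and C trend, and 35 to 208 and 2 to 212 with 1 library left out. The interaction gave 525 higher by edgeR, 622 after centring, 104 and 490 in 1 fit, and 452 lower with only regions that had a peak in both treatments, with 203 to 301 and 729 to 927 with 1 library left out. Between untreated SCC25 and SCC6 they were 2108 to 2469 and 1027 to 1121 with 1 library left out, and no alternative moved a count by over 1.5 times. The cause of these moves was not tested.

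Same-numbered libraries did not deviate together, so the replicate block pairs only a number. With it SCC6 gave 1411 higher and 1050 lower, SCC1 223 and 198, the interaction 277 and 886, and the untreated lines 2461 and 1118. SCC1 held a median of 8 to 15 reads per chosen region, the part of depth was not tested, and a missing SCC1 peak does not show closed chromatin. Intervals and counts cover these libraries only.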

Other observations

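In windows of 5 Mb the share of regions that was chosen had a median of 5.13% over 548 windows. On chromosome 9 from 85 to 90 Mb 52 of 262 were chosen (19.8%), 12 of them nearest to NTRK2, which encodes the neurotrophin receptor TrkB. On chromosome 9 from 75 to 80 Mb 46 of 276 were chosen (16.7%), and there the median log2 difference of SCC1 from the other lines at 6 regions open in every library was -1.22.

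Genes of the factors named by the motifs were looked up after the motif shares were seen. RUNX1 had 4 chosen regions of the 31 assigned to it, and a peak within 1 kb of a start site in up to 3 SCC1, 6 SCC6 and 4 SCC25 libraries. RUNX2 had 4 of 28, and a promoter peak in 0 SCC1, 2 SCC6 and 5 SCC25 libraries. RUNX3 had 0 of 6 and no promoter region in the table. FOXQ1 had 5 of 24, and its promoter a peak in 0 SCC1, 3 SCC6 and 4 SCC25 libraries, and FOXE1 had 2 of 10, with 0, 5 and 3. Other FOX genes had SCC1 promoter peaks, FOXC1 and FOXP4 in 4 libraries and FOXA1, FOXN3 and FOXO1 in 3. Of the AP-1 genes, JUNB had 1 chosen region of 4 and a promoter peak in 0 SCC1, 6 SCC6 and 2 SCC25 libraries. BATF3 had 0 chosen of 6, with 0, 3 and 2. The other AP-1 genes looked up had 0 chosen regions, and each had a promoter peak in SCC1. It was seen in up to 5 SCC1 libraries at FOSL2 and JUN, 4 at FOSL1, 2 at FOS and JUND and 1 at BATF. The TEAD genes had SCC1 promoter peaks as well, TEAD1 in 5 libraries, TEAD2 in 3 and TEAD3 and TEAD4 in 2.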
